A study of Mus musculus with 3 samples.

Results

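The 10 genes described here, in thymocytes, the immature T cells of the thymus, lay lower on the array of TCF-1-deficient mice and higher on the array of β-catenin transgenic mice than on the wild type array. They are Papss2, Smoc1, Esrp2, Nav2, Map4k5, Tiparp, Ndrg3, Cers6, Ankrd50 and Parp8. The rule asked for at least 1.5-fold in each direction, and 35 of the 19938 genes with a named probe set met it (0.176%), of which these are 10. Each of the 10 has 1 probe set among the 21789 with 1 symbol, out of 35556 on the array. The genes were chosen by the values of these same arrays, so their differences from wild type are given as a description, with no test.

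The groups were TCF-1-deficient thymocytes (genotype TCF-1-/-, 8 weeks of age), β-catenin transgenic thymocytes (16 weeks) and wild type thymocytes (12 weeks). Whether RNA of several mice was pooled is not stated. There was 1 Affymetrix whole-transcript array per genotype, so genotype, age and individual, and for the transgenic array also sex, cannot be told apart and no value has an error. The labels do not say which promoter drives the transgene or which strain was used, and they mention no sort of the cells. The series' design looks for candidate targets of the β-catenin/TCF-1 pathway among genes of exactly this combination.

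TCF-1 is a DNA-binding protein of the T lineage. β-catenin is the Wnt pathway's messenger: when it is not degraded it enters the nucleus, binds factors of the TCF/LEF family and helps to turn on their target genes. In the thymus TCF-1 is known for its part in T lineage entry and in the survival of CD4+CD8+ double-positive cells.

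Values are the deposited probe set levels on a log2 scale, and a difference of 1 is 2-fold. Over all genes, 1376 (6.90%) were lower without TCF-1 than in wild type by at least 1.5-fold, and 97 (0.487%) were higher with the transgene than in wild type. At 2-fold these numbers were 523 (2.62%) and 30 (0.150%). The median difference over all genes was 0 in each comparison, and 36.4% and 53.3% of genes had exactly the wild type value on the TCF-1-deficient and on the transgenic array.

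Over the 10 genes, the TCF-1-deficient minus wild type difference ran from -3.22 (Map4k5) to -0.68 (Parp8) with a median of -1.47. The transgenic minus wild type difference ran from 0.66 (Ankrd50) to 1.78 (Esrp2) with a median of 0.90. The difference on the TCF-1-deficient array was the larger in size for 7 genes, and the difference on the transgenic array was the larger for Esrp2, Ndrg3 and Parp8. By 2-fold or more, 7 of the 10 were lower on the TCF-1-deficient array and 4 were higher on the transgenic array. Papss2, Smoc1 and Esrp2 reached 2-fold in both. The wild type array lay between the mutants for every gene, which the rule fixes.

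**Figure D1:**
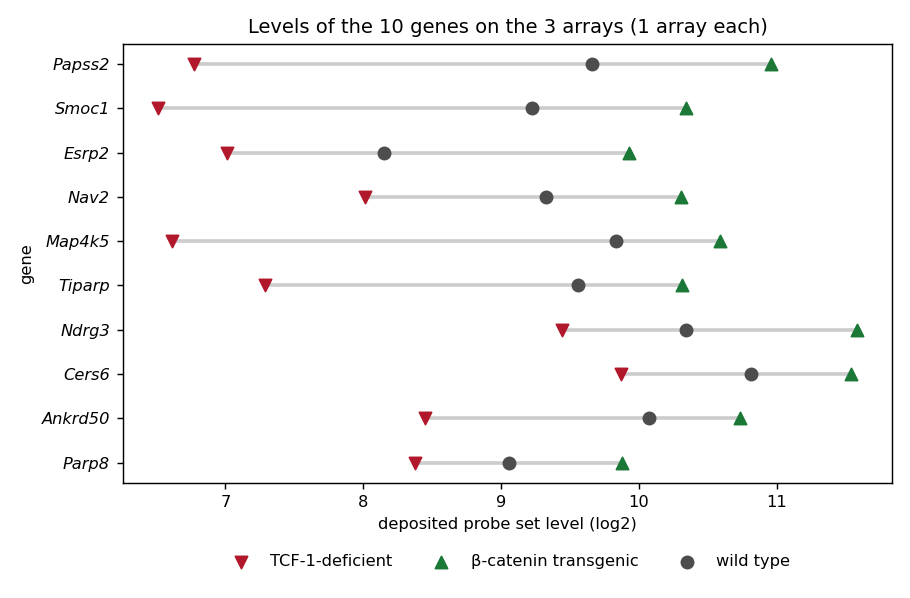
Deposited log2 level (horizontal axis) of each of the 10 genes (rows) on the TCF-1-deficient (downward triangle), β-catenin transgenic (upward triangle) and wild type (circle) array, with 1 array each and no error bars. The gap between the mutants is widest for Papss2, at 6.77 against 10.96, and narrowest for Parp8, at 8.37 against 9.88.

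Papss2 works inside the cell and Smoc1 is secreted. Papss2 makes PAPS, the activated sulfate that every sulfotransferase uses as donor. It had 6.77 in TCF-1-deficient, 10.96 in transgenic and 9.66 in wild type thymocytes. It was thus 7.42-fold lower without TCF-1 and 2.45-fold higher with the transgene, and 18.2-fold apart between the mutants, the widest span of the 10. Among all 19938 genes it ranked 19 from the lowest difference without TCF-1 and 17 from the highest with the transgene.

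Smoc1 encodes a secreted calcium-binding protein of the SPARC family that binds basement membranes and, in frog embryos, blocks BMP signals. It had 6.51 in TCF-1-deficient, 10.34 in transgenic and 9.23 in wild type thymocytes. The folds were 6.58 lower and 2.17 higher than wild type. Its pattern was the nearest of all genes to that of Papss2, at a distance of 0.25 in the plane of both differences, and it ranked 22 in each direction.

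Map4k5 and the ADP-ribosyltransferases Tiparp and Parp8 are enzymes that modify other proteins. Map4k5 is a STE20-type kinase that links TNF receptor signals to the JNK cascade. It had 6.62 in TCF-1-deficient, 10.59 in transgenic and 9.84 in wild type thymocytes. The difference of -3.22, a 9.32-fold lower level, was the largest of the 10 without TCF-1 and ranked 11 among all genes. With the transgene Map4k5 was 1.69-fold higher, at rank 55.

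Tiparp is induced by the aryl hydrocarbon receptor (AHR), a sensor of environmental and dietary ligands, and attaches single ADP-ribose units to proteins, AHR among them, which damps the receptor. It had 7.28 in TCF-1-deficient, 10.31 in transgenic and 9.56 in wild type thymocytes. It was 4.84-fold lower and 1.68-fold higher than wild type. Parp8, another member of the PARP family, had 8.37 in TCF-1-deficient, 9.88 in transgenic and 9.06 in wild type thymocytes. Its 1.61-fold lower level was the smallest difference of the 10 without TCF-1. With each array centred on its median over all probe sets that difference became -0.55, short of 1.5-fold.

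Esrp2 and Nav2 concern RNA splicing and the cytoskeleton. Esrp2 is an RNA-binding protein that sets the splicing pattern typical of epithelial cells. It had 7.01 in TCF-1-deficient, 9.93 in transgenic and 8.15 in wild type thymocytes. It was 3.43-fold higher with the transgene, at rank 8 of all genes. Without TCF-1 it was 2.21-fold lower, at rank 401. Nav2 is a neuron navigator, a protein of growing microtubule ends. Its levels were 8.01 in TCF-1-deficient, 10.31 in transgenic and 9.33 in wild type thymocytes, which is 2.49-fold lower and 1.97-fold higher than wild type.

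Cers6 and Ankrd50 belong to membranes. Cers6 is a ceramide synthase that prefers palmitoyl-CoA. It had 9.87 in TCF-1-deficient, 11.54 in transgenic and 10.81 in wild type thymocytes, so it was 1.92-fold lower and 1.66-fold higher than wild type. Ankrd50 is an ankyrin repeat protein that works with SNX27 and retromer, the machinery that returns proteins from endosomes to the cell surface. It had 8.45 in TCF-1-deficient, 10.73 in transgenic and 10.07 in wild type thymocytes. Its 3.07-fold lower level without TCF-1 went with the smallest difference of the 10 with the transgene, a 1.58-fold higher level.

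Ndrg3 is a member of the N-Myc downstream-regulated gene family, whose proteins have a hydrolase-like fold. In human cells its protein builds up under low oxygen. It had 9.44 in TCF-1-deficient, 11.59 in transgenic and 10.34 in wild type thymocytes. It was 1.86-fold lower and 2.37-fold higher than wild type, with rank 19 from the highest on the transgenic array and rank 652 from the lowest on the TCF-1-deficient array.

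The median level over genes was 6.91 in TCF-1-deficient, 6.87 in transgenic and 6.86 in wild type thymocytes. All 10 genes were above it in transgenic and in wild type thymocytes. Papss2, Smoc1 and Map4k5 were under it without TCF-1, so the folds of these 3 rest on a dim value there and their size is uncertain.

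The genes just inside the threshold, taken by the smaller of their 2 differences among genes at or above the median on the wild type array, were Slc16a5, a transporter of the monocarboxylate family (-1.10 without TCF-1 and 0.59 with the transgene), Slc30a4, a zinc transporter (-0.59 and 0.82), and Ccdc186 (-0.90 and 0.60), none of them among the 10. Just outside it were Pxmp4, a peroxisomal membrane protein (-0.76 and 0.57), Ptms, parathymosin (-1.66 and 0.55), and Pou6f1, a POU-domain factor (-0.75 and 0.54). The member nearest to the threshold was Ankrd50 through its 0.66 with the transgene. Here and below, a pair of values in parentheses gives the difference from wild type without TCF-1 and then with the transgene. The gap between the last gene inside and the first outside, 0.59 against 0.57, shows no break in the values at 1.5-fold.

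**Figure D2:**
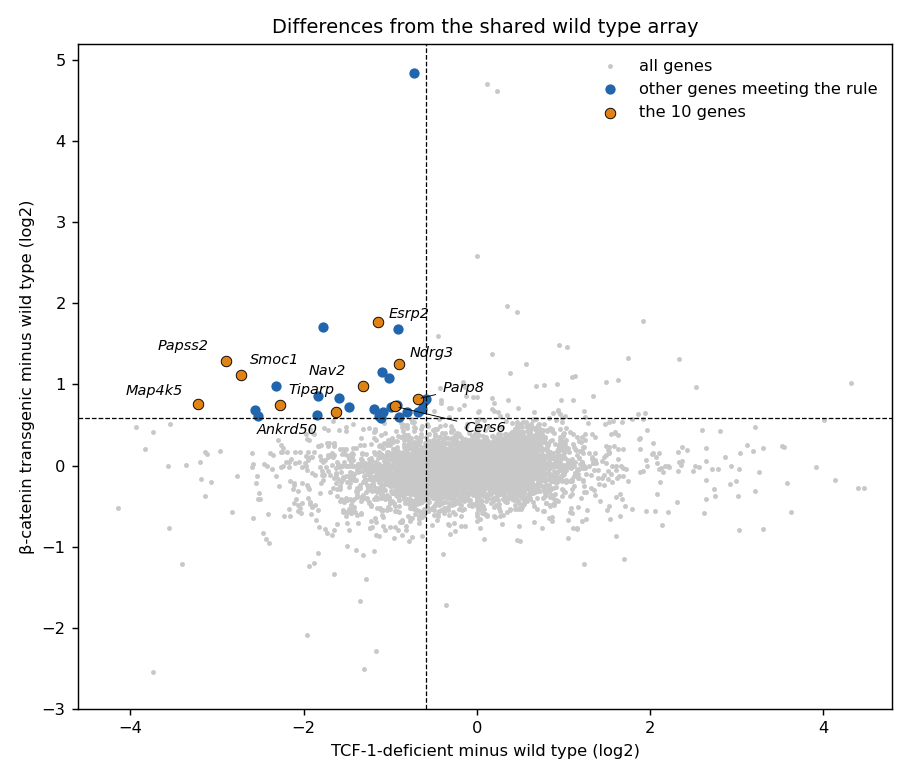
Difference of each gene from wild type on the TCF-1-deficient (horizontal axis) and transgenic (vertical axis) array in log2 units, with 1 array each. Dashed lines mark 1.5-fold, orange points are the 10 genes and blue points the other 25 genes that meet the rule. Both axes share the wild type array, and Xist lies outside the plotted range.

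The 25 other genes that met the rule had differences from -2.56 to -0.59 without TCF-1 (median -1.09) and from 0.59 to 4.85 with the transgene (median 0.72). At 2-fold in both, 6 genes met it (0.0301%): besides Papss2, Smoc1 and Esrp2 these were Ctsl, the protease cathepsin L (-1.78 and 1.71), Lamc1, a laminin chain (-1.09 and 1.16), and the class I MHC gene H2-Q2 (-1.02 and 1.08), whose probes may also catch RNA of its near copies. The genes nearest in pattern to Papss2 and to Smoc1 were drawn from the same few: after each other, Plod2, a collagen lysyl hydroxylase (-2.31 and 0.98), Pip5k1b, a lipid kinase (-2.56 and 0.69), and Sqor, which oxidises sulfide (-2.53 and 0.61), were among the 5 nearest to each. Map4k5 was also among the 5 nearest to Papss2, and Tiparp among the 5 nearest to Smoc1. Nearest to Esrp2 were Cd44, the hyaluronan receptor (-0.91 and 1.68), at a distance of 0.25, then Ndrg3, Lamc1, Ctsl and H2-Q2. The likeness is over 3 arrays and is a description. It uses the same differences as the rule, so genes near a member tend to meet the rule as well. Papss2 and Smoc1 lie close to each other, so shared neighbours add nothing to that closeness.

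The relatives of the 10 genes mostly did not share their pattern. Papss1, the other PAPS synthase, differed from wild type by -0.01 without TCF-1 and by 0 with the transgene. Smoc2 (0.10 and 0.02), Esrp1 (0 and 0) and Nav3 (0.03 and 0.03) were also close to wild type on each array. Of these 4, all but Papss1 lay under the gene median on every array, so a difference in them may not have been measurable. Nav1 went the other way without TCF-1, by 0.82, and was 0.26 higher with the transgene.

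Among the kinases of the same family, Map4k1, which restrains T cell receptor signals, differed by -0.30 without TCF-1 and -0.11 with the transgene, and Map4k4 was near wild type (-0.09 and 0). Cers5, which like Cers6 prefers palmitoyl-CoA, was short of 1.5-fold (-0.34 and 0.20). Cers4 was higher without TCF-1 (1.08 and 0). Cers2 was near wild type (-0.08 and 0).

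Of the 3 other NDRG genes, 1 (Ndrg2) was lower without TCF-1 and 1 (Ndrg1) higher with the transgene by at least 1.5-fold, beside 6.90% and 0.487% of all genes. Ndrg3 itself was chosen by these values. Ndrg1, known as a gene induced by low oxygen, had 8.75 in TCF-1-deficient, 10.14 in transgenic and 9.18 in wild type thymocytes. It was higher by 0.96 with the transgene, past 1.5-fold, and differed by -0.42 without TCF-1, short of it. Ndrg2 differed by -0.90 without TCF-1, as Ndrg3 did, but differed by -0.06 on the transgenic array. Ndrg4, a dim gene, was near wild type (0.19 and 0).

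The wider pathway lists were set beside the background of all genes. Over the 10 lists together, with the 10 genes left out, 194 genes were measured. Of these, 22 (11.3%) were lower and 12 (6.19%) higher without TCF-1 by at least 1.5-fold, against 6.90% and 4.04% of all genes. On the transgenic array 2 (1.03%) were higher and 1 (0.515%) was lower, against 0.487% and 0.667% of all genes. With each array centred on its median over all probe sets, 17 (8.76%) of the 194 were lower and 16 (8.25%) higher without TCF-1, against 979 (4.91%) and 1280 (6.42%) of all genes, so the excess of lower over higher genes shrank to 1 among the 194 and turned round among all genes. On the transgenic array the counts of 2 and 1 were the same after centring, against 136 (0.682%) higher and 87 (0.436%) lower of all genes. The median over the 194 genes was 0 in each comparison, as over all genes. With 36.4% and 53.3% of all genes exactly at the wild type value, such a median says little. Of the 194, 53 were below the median level on every array, against 9531 of all 19938 genes. Of the 1376 lower and 806 higher genes without TCF-1, 1269 and 586 had a mean level of at least the gene median. Dim genes were thus called less often and are a smaller part of the lists. No background of like level was made, so shares above those of all genes are no result about the lists. The 2 higher on the transgenic array were Ndrg1 and Chst2, a sulfotransferase of sugar chains, which was also higher on the TCF-1-deficient array (0.66 in each).

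Of 30 other sulfation genes, 5 (16.7%) were lower and 4 (13.3%) higher without TCF-1, and 3 (10%) and 5 (16.7%) after centring. The shares of all genes were 6.90% and 4.04%, and 4.91% and 6.42% after centring. They are the background for the lists below as well. Slc35b3, which carries PAPS into the Golgi, was lower (-1.09), as was Hs6st1, a heparan sulfate sulfotransferase (-0.92). Chst15, which sulfates chondroitin, was higher by 1.22 there and lower with the transgene (-0.68), the reverse of Papss2.

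Of 20 other STE20-type kinases and JNK cascade genes, 5 (25%) were lower and 0 higher on the TCF-1-deficient array, with a median of -0.26. The shares of all genes were 6.90% and 4.04%. After centring 4 (20%) were lower and 0 higher, against 4.91% and 6.42% of all genes. Of these 20, 0 were below the gene median on every array, as 9531 of all genes were, so the backgrounds differ in level. With Map4k5 included, the median of -0.27 became -0.13 after centring. The lowest were Stk26 (-1.48), Tnik, a kinase known to act with TCF factors in Wnt signalling (-0.91), and Stk4, the Hippo kinase MST1 (-0.86). None of the 20 was past 1.5-fold on the transgenic array, where Tnik differed by -0.38. Of 35 other sphingolipid genes, 5 (14.3%) were lower and 1 (2.86%), Cers4, was higher without TCF-1, and 5 (14.3%) and 2 (5.71%) after centring. The lowest were Asah2, a ceramidase (-2.06), Cerk, which phosphorylates ceramide (-1.63), and Smpd1, the acid sphingomyelinase (-1.04). None of the 35 passed 1.5-fold on the transgenic array.

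For the AHR pathway, 10 genes besides Tiparp were measured. On the TCF-1-deficient array 0 were lower and 1 (10%), Arnt2, was higher (0.65), and 0 and 2 (20%) after centring. Ahr itself had 8.62 in TCF-1-deficient, 8.32 in transgenic and 8.35 in wild type thymocytes. The classical AHR-induced genes Cyp1a1, Cyp1a2 and Nqo1 each had the same value on all 3 arrays, at 5.28, 5.41 and 4.49, under the gene median. Cyp1b1 (0.08 and 0) and Ahrr (0.14 and 0.14), also of this list, were near wild type and under the gene median too. Tiparp was thus the 1 gene of this list beyond 1.5-fold in the direction of the rule on either array. Of 17 other PARP family genes, Parp6 (-0.79) was lower and Parp12 (1.02) and Parp1, the DNA damage sensor (0.67), were higher on the TCF-1-deficient array, and 0 passed on the transgenic array.

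Among 17 SPARC family and BMP pathway genes, Smad1, a mediator of BMP signals, was lower (-1.50), and Id2 (0.80) and Id1 (0.61), genes that BMP signals induce, were higher on the TCF-1-deficient array. Among 27 splicing regulators, 1 (3.7%), Celf2, was lower (-0.98) and 1 (3.7%), the dim gene Nova1, higher by 1.23. Among 18 navigators and microtubule plus-end proteins 3 (16.7%) were lower, 1 (5.56%) after centring, with Mapre2, an end-binding protein, the lowest (-2.03). Mapre2 also had a negative difference on the transgenic array, of -0.58, just short of 1.5-fold. In these 3 lists 0 genes passed 1.5-fold on the transgenic array.

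Of 17 genes of SNX27, retromer and the WASH complex, which share the recycling route with Ankrd50, 0 passed 1.5-fold on either array. The largest differences were -0.40 for Vps35l without TCF-1 and 0.37 for Washc3 with the transgene.

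**Figure D3:**
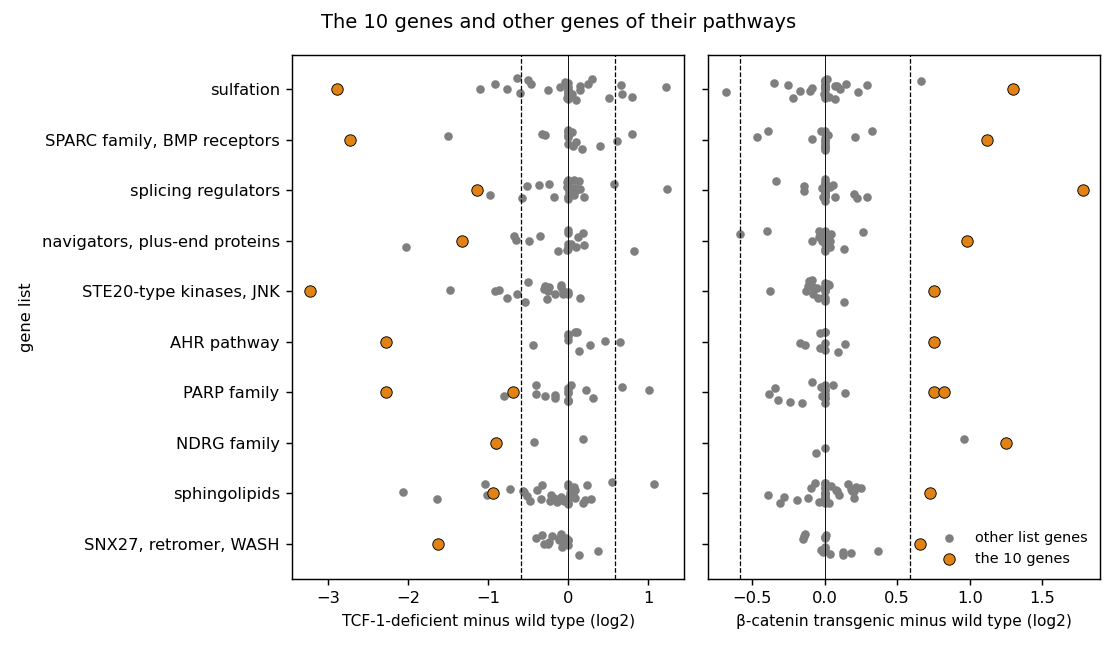
Differences from wild type in log2 units on the TCF-1-deficient (left) and transgenic (right) array for every measured gene of the 10 lists (rows). Orange points are the 10 genes, grey points the other 194 genes, dashed lines mark 1.5-fold in each direction. On the right, 2 grey points pass the upper line, Ndrg1 and Chst2.

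Position on the chromosome was not used by the rule. The 10 genes lie on 7 autosomes in the RefSeq gene table, with pairs on chromosomes 2 (Ndrg3 and Cers6), 3 (Tiparp and Ankrd50) and 12 (Map4k5 and Smoc1), and 0 of them on X or Y. Of the 20 nearest measured neighbours, 4 were lower without TCF-1 by at least 1.5-fold (6.90% of all genes) and 0 were higher on the transgenic array (0.487%). The 4 were Nfatc3 beside Esrp2 (-1.19), a factor that T cell receptor signals activate, Emb beside Parp8 (-0.94), Sla2 beside Ndrg3 (-0.84), an adaptor that dampens receptor signals, and Minpp1 beside Papss2 (-0.71). With the transgene Nfatc3 differed by 0.41, Emb by 0.15, Sla2 by 0.27 and Minpp1 by -0.06. No neighbour therefore met the rule. The median over the 20 was 0 in each comparison, which says little, as many values were identical to wild type. Slc10a1 (5.56), Slc8a3 (5.95), Atl1 (6.17), Isl1 (5.78) and Nostrin (4.21), among others, had the same value on every array, under the gene median. A difference in such neighbours may not have been measurable, so the lack of a hit says little about them.

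**Figure D4:**
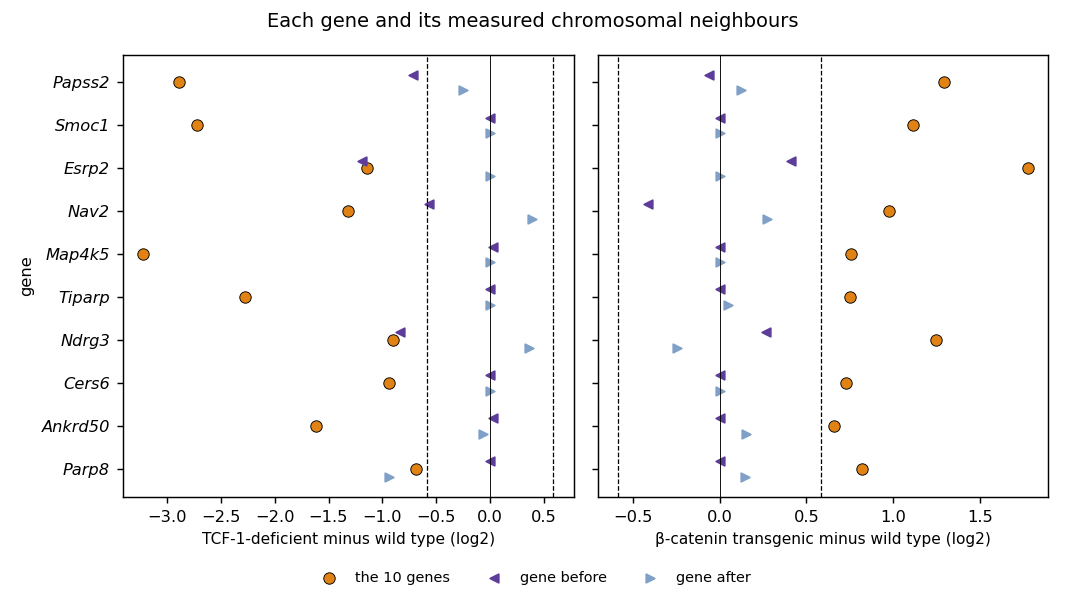
Differences from wild type in log2 units on the TCF-1-deficient (left) and transgenic (right) array for each of the 10 genes (orange) and the nearest measured gene before (left-pointing) and after (right-pointing) it on the chromosome. Dashed lines mark 1.5-fold. The neighbours stay inside the lines on the right, and 4 pass the lower line on the left.

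Promoter sequence was not used by the rule either. RefSeq's table (GRCm38.p6) holds 12 windows, 250 bases before to 50 after a start, for 8 of the 10 genes. Smoc1 and Esrp2 had no entry. The windows were searched on both strands for CTTTGA, the core of the site that TCF/LEF factors bind, which 0 of 12 held, against 16.0% of all 32851 windows. The longer forms CTTTGAT and CTTTGAA, which contain it, were therefore in 0 of 12 as well, against 3.73% and 5.14%. The shorter CTTTG, added after that result was seen, was in 3 of 12 windows (25.0%), against 53.9% of all windows. The 3 were of Nav2 and of Ankrd50, whose windows overlap and were each counted. These letters are absent from or present in these windows only, and nothing follows from this about binding, which was not measured and can lie elsewhere.

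The windows were rich in G and C, with a median of 70.7% (44.3% to 74.7%) against 52.7% over all windows, which cover every kind of gene in the table. GCGTG, the core that AHR binds, chosen after seeing the data, was searched for as well. Counting each of the overlapping windows of Ankrd50, it was in 7 of 12 windows (58.3%), those of 6 genes, against 32.4% of all. For the other genes that met the rule, it was in 7 of 25 windows (28%), so the higher share was not found over the rest of the combination. The part of GC content in these shares was not tested.

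The stretches upstream of the annotated gene are shown for the 4 genes with an entry and the largest differences without TCF-1, in the sense of the gene, 5′ to 3′, so that the lack of CTTTGA and the G and C runs can be seen. They are Map4k5 (minus strand, chr12:69893164-69893413), Papss2 (plus strand, chr19:32595465-32595668), Tiparp (plus strand, chr3:65528197-65528446) and Ankrd50 (minus strand, chr3:38484863-38485100), all GRCm38.p6. Capitals mark CTTTG or GCGTG on either strand. CACGC is GCGTG and CAAAG is CTTTG read on the other strand.
Map4k5: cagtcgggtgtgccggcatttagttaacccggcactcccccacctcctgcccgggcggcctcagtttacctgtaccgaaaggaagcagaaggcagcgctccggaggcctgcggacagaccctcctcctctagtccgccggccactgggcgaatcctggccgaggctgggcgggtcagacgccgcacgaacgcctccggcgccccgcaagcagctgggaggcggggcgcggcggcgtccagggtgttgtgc
Papss2: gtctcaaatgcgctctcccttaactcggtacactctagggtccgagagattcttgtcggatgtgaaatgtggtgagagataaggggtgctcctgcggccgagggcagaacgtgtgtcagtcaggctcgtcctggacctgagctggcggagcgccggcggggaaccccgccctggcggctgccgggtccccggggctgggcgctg
Tiparp: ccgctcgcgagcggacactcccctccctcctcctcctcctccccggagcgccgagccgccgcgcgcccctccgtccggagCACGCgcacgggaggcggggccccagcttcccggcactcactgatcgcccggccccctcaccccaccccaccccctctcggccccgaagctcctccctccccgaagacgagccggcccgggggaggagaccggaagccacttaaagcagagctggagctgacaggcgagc
Ankrd50: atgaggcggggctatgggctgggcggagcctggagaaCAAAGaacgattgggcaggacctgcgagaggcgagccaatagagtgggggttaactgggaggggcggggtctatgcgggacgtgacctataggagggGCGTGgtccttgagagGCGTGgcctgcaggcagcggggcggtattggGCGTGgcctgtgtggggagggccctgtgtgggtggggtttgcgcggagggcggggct
The stretches of Map4k5 and Papss2 hold neither motif, that of Tiparp holds GCGTG 1 time on the opposite strand, and that of Ankrd50 holds CTTTG 1 time on the opposite strand and GCGTG 3 times.

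Markers of several cell types also differed between the arrays. For the marker counts here and below, the background is the share of all genes past 1.5-fold. It was 6.90% lower and 4.04% higher on the TCF-1-deficient array, and 0.667% lower and 0.487% higher on the transgenic array. Of 13 measured double-positive markers, 12 (92.3%) were lower on the TCF-1-deficient array, with a mean level of 9.88 there, 11.83 on the transgenic array and 11.71 on the wild type array, and a median difference of -1.75 without TCF-1 and 0.10 with the transgene, where 0 of the 13 passed 1.5-fold. Fewer cells of a type and less RNA per cell cannot be told apart in such bulk RNA. DN3 markers of the earlier stage were higher for 8 of 10 on the TCF-1-deficient array, with a mean level of 10.24 there, 7.88 in transgenic and 8.18 in wild type thymocytes. On the transgenic array 2 of these 10 were lower, Dtx1 (-0.80) and Notch1 (-0.66), against 0.667% of all genes, and 1 after centring. B lymphocyte markers were higher for 8 of 9 on the TCF-1-deficient and 2 of 9 on the transgenic array. Their mean was 8.41 in TCF-1-deficient, 7.17 in transgenic and 6.89 in wild type thymocytes. Myeloid markers were higher for 4 of 10 without TCF-1 and 1 of 10 with the transgene, with a mean of 7.64 in TCF-1-deficient, 7.13 in transgenic and 6.89 in wild type thymocytes. The part of these shifts in the 10 genes' differences was not tested.

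Single-positive markers, of the stage after the double-positive, were lower for 4 of 11 and higher for 2 on the TCF-1-deficient array and lower for 3 on the transgenic array, with a mean of 8.99 in TCF-1-deficient, 9.07 in transgenic and 9.46 in wild type thymocytes. The 7 measured general T cell markers had a mean of 11.96 in TCF-1-deficient, 12.12 in transgenic and 12.16 in wild type thymocytes, with Cd3e at 13.05, 13.34 and 13.42 in the same order. Without TCF-1, Cd247 (-0.91) and Thy1 (-0.61) were lower and Cd3d (0.60) was higher, and with the transgene 0 of the 7 passed 1.5-fold. Thymic epithelial markers, which bear on Esrp2 and Smoc1, had a mean of 6.60 in TCF-1-deficient, 6.56 in transgenic and 6.58 in wild type thymocytes, and 8 of 12 were below the median level on every array. Without TCF-1, 1 of 12 was lower, Cldn4, at 7.94 against 9.38 in wild type (-1.44), and 1 was higher, Cdh1 (0.94), and with the transgene 0 passed. Epcam was at 6.20 and Psmb11 at 5.96 on all 3 arrays. Fibroblast and endothelial markers had a mean of 7.03 in TCF-1-deficient, 6.52 in transgenic and 6.55 in wild type thymocytes. Without TCF-1, 1 of 10 was higher, Pdgfrb, at 11.62 against 7.15 in wild type (4.47), and the median difference over the 10 was 0.02. The higher mean there thus rests largely on Pdgfrb. Xist was at 12.17 on the TCF-1-deficient, 4.86 on the transgenic and 12.49 on the wild type array. The Y-linked genes Uty (4.62), Kdm5d (2.58) and Eif2s3y (4.70) were higher in transgenic than in wild type thymocytes, so the sex of the mice differs between these arrays as far as these transcripts show. Ctnnb1, which encodes β-catenin, had 11.16 in TCF-1-deficient, 11.39 in transgenic and 11.15 in wild type thymocytes, a difference of 0.24 with the transgene, short of 1.5-fold. The labels do not tell if its probes detect the transgene. The label of the TCF-1-deficient array was not checked against the gene it names, which is not analysed here.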

How the data were processed

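Thymocytes were strained, their total RNA was purified on columns and biotinylated targets were hybridised, per the labels' protocols, to Affymetrix whole-transcript arrays, 1 per genotype. The deposited values were taken as log2: the submitters' processing notes name RMA, which ends in log2 values, and Partek, and no header states the base. For versions, settings and genome build: not given in the sources used here. Normalisation was kept as deposited. Columns of no sample numbered 0.

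Gene names came from the annotation of the platform: 21789 had 1 symbol, 1621 had several and were not used, and 12146 are unnamed here. The 21789 represent 19938 genes, and for the 999 with more than 1 probe set the brightest was taken. Differences are TCF-1-deficient or transgenic minus wild type, folds are 2 to that power, and a gene was called at 1.5-fold, a rule of size. With 1 array a group no test is possible, depth does not apply and precision is limited by the number of arrays.

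The 10 genes, the 10 pathway lists, the 8 marker lists and the naming rule were chosen with earlier results of these data known. The rule names the 10 genes, every gene meeting the combination at 2-fold, the 3 nearest to 1.5-fold on each side, up to 4 per list and comparison, paralogs, flanking genes and the 5 nearest patterns of 3 genes. Other genes named (Ahr, Cyp1a1, Cyp1a2, Cyp1b1, Nqo1, Parp1, Ctnnb1, Xist, Y-linked genes and markers) were chosen after their values were seen. Neighbours came from the RefSeq gene table of GRCm38.p6, used for order and names, and promoters from its promoter table. Only the count of the combination, with and without loess, was tested on simulated data. Alternatives were other thresholds, centring, loess (span 0.3), a filter on dim genes and other probe set rules. Python 3.11.15, NumPy 2.4.6, pandas 2.3.3, statsmodels 0.14.6 and matplotlib 3.10.9 were used.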

Additional observations from a re-analysis of the deposited data

How the results depend on the processing

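No paired analysis was possible because each genotype has 1 array, and for the same reason no array can be left out. All 10 genes stayed past 1.5-fold in both comparisons when an intensity trend was removed by loess. They also did when probe sets were averaged, which could not change them, as each has 1 probe set with 1 symbol. Centring arrays on their medians over named genes kept all 10 too, but could not have undone a call. It adds -0.05 to each TCF-1-deficient difference and -0.004 to each transgenic difference. Centring on the medians over all probe sets adds 0.13 to each TCF-1-deficient difference and 0.08 to each transgenic difference, and under it Parp8 became -0.55 on the TCF-1-deficient array, short of 1.5-fold, while the other 9 kept their call. The 35 genes of the combination became 6 at 2-fold, and 62 when all probe sets were counted, named or not, an alternative chosen after seeing the data. At 2-fold, 523 genes were lower and 266 higher on the TCF-1-deficient array, and 19 lower and 30 higher on the transgenic array, fewer by construction. Centring changed the split at 1.5-fold from 1376 lower and 806 higher to 979 lower and 1280 higher on the TCF-1-deficient array, and from 133 lower and 97 higher to 87 lower and 136 higher on the transgenic array. The median of the NDRG list without TCF-1, -0.66, became -0.53 after centring and -0.42 without Ndrg3.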

Other observations

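Of the 12146 probe sets unnamed here, 24 met the rule of at least 1.5-fold in each direction. Of the 1621 with several symbols, 0 met it, and of the 21789 with 1 symbol, 38 did. Among the 25 genes of the combination outside the 10, promoter windows were found for 20, and CTTTGA was in 4 of their 25 windows (16.0%), the share of all windows being 16.0%. CTTTGAA, which contains CTTTGA, was in the same 4 windows (16.0%), so it is no separate count, against 5.14% of all windows. CTTTGAT was in 0, against 3.73%.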
